A study of Homo sapiens with 18 samples.

Results

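The N-myc downstream-regulated gene (NDRG) family consists of NDRG1, NDRG2, NDRG3 and NDRG4, and its 4 members were taken by gene symbol from the gene-level RNA-seq count tables. All 4 were present among the 23106 genes listed, of which 19183 had at least 1 count in 1 of the 18 samples. The samples came from 3 human cell lines, each grown in normoxia and in hypoxia with 3 replicates per condition. HKC-8 is a line of kidney proximal tubule cells, HepG2 is a hepatocellular carcinoma line, and RCC4+VHL is a renal carcinoma line that lacks a working VHL gene of its own and was stably transfected with the wild-type gene, so that all 6 of its samples carry the transgene. Per the labels, hypoxia meant 0.5% oxygen for 16 h in HKC-8 and HepG2, and 1% oxygen for 24 h in RCC4+VHL. In HKC-8, sample titles instead name 0.1% oxygen for hypoxia and 21% for normoxia, so that the exposure of this line is uncertain. Cell line and exposure therefore cannot be told apart in comparisons with RCC4+VHL, nor in those with HKC-8 if its titles are right. The titles of all 6 RCC4+VHL samples also carry the word Replacement, which the labels do not explain.

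NDRG proteins share an alpha/beta-hydrolase fold but are thought to lack hydrolase activity. NDRG1 is a cytoplasmic stress protein induced by low oxygen and by differentiation signals, a substrate of the kinases SGK1 and GSK3, and a suppressor of metastasis in several tumour types. NDRG2 is abundant in brain and is repressed by MYC, NDRG4 is expressed mainly in brain and heart, and NDRG3 is best known at the protein level, where prolyl hydroxylase and VHL drive its degradation in normoxia and lactate protects it in hypoxia. When oxygen falls, hypoxia-inducible factor (HIF) escapes the same hydroxylase and VHL pathway and activates its target genes.

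The members lie on separate chromosomes. On GRCh37, in the GENCODE annotation lifted to that build, NDRG1 spans chr8:134249418-134314265 on the minus strand, NDRG2 chr14:21484922-21539031 on the minus strand, NDRG3 chr20:35280169-35374493 on the minus strand and NDRG4 chr16:58496750-58547532 on the plus strand. Their longest coding sequences are of similar length, at 1182, 1113, 1164 and 1173 bases. No run of 50 bases in the annotated transcripts of one member occurs in another, so that reads of that length or longer could not be confused between members. Runs shared with annotated genes outside the family made up 5.27% of those of NDRG1, 2.77% of NDRG2, 2.42% of NDRG3 and 0% of NDRG4. Their effect on the counts was not tested. Exons of NDRG2 share 236 bases, or 3.1% of its merged exon length, with TPPP2 on the opposite strand, and the strand setting of the counting is not given in the sources used here. TPPP2 had at most 16 counts in any HepG2 sample and no count in the other lines.

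Between 40915980 and 97984260 reads were assigned to genes per sample, and the HKC-8 samples were the deepest, none with fewer than 75441764. Levels are given as CPM, the read count of a gene scaled to a common library size with TMM factors over all 18 samples. In CPM, the sum of 8 liver markers was 33515 to 42087 in HepG2, 8.83 to 11.2 in RCC4+VHL and 0.242 to 0.552 in HKC-8. The sum of 8 kidney markers was 481 to 587 in RCC4+VHL, 156 to 200 in HKC-8 and 17 to 34.4 in HepG2, and LRP2, the proximal tubule receptor megalin, was at or under 3 counts in every HKC-8 sample. The 3 epithelial markers (KRT8, KRT18 and EPCAM) summed to 2796 to 2975 CPM in normoxia and 2598 to 2844 in hypoxia in HKC-8, 1971 to 2055 and 1576 to 1634 in RCC4+VHL, and 2887 to 3173 and 3881 to 4323 in HepG2, and the 3 markers of blood and endothelium to at most 3.18 CPM. Replicates of HKC-8 varied most, with a biological coefficient of variation of 0.135 against 0.0437 in RCC4+VHL and 0.0733 in HepG2, and any 2 samples of a group differed by more than sampling noise. The labels call the experiments triplicate without naming separate cultures, so that p-values measure the spread between these samples only.

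NDRG1 was the one member that rose in hypoxia, and it rose in all 3 lines by more than 10-fold, while NDRG2, NDRG3 and NDRG4 moved little. In HKC-8, NDRG1 stood at 22.5, 23.2 and 36.4 CPM in the normoxic replicates 1 to 3 and at 887, 564 and 702 CPM in the hypoxic ones. In RCC4+VHL it stood at 48.4, 51 and 49.2 CPM in normoxia and at 660, 656 and 665 CPM in hypoxia. In HepG2 the values were 41.2, 40.6 and 50.4 CPM in normoxia and 547, 469 and 544 CPM in hypoxia. Every hypoxic sample was above every normoxic sample, and the lowest hypoxic sample exceeded the highest normoxic one of its line by a factor of 15.5 in HKC-8, 12.9 in RCC4+VHL and 9.32 in HepG2.

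The log2 fold change of NDRG1 was 4.72 ± 0.24 (SE, n = 3 per condition) in HKC-8, or 26.3-fold with a 95% confidence interval of 18 to 38.3, at an adjusted p of 6.84e-06 by edgeR's quasi-likelihood test. It was 3.74 ± 0.04 in RCC4+VHL (13.4-fold, edgeR adjusted p = 2.16e-27) and 3.56 ± 0.09 in HepG2 (11.8-fold, edgeR adjusted p = 6.94e-12). By size of rise NDRG1 ranked 12 of the 13536 genes tested in HKC-8, 13 of 12811 in RCC4+VHL and 57 of 13623 in HepG2, and in RCC4+VHL it had the smallest p of all genes. All 11 genes that rose by a larger factor in HKC-8, all 12 in RCC4+VHL and all 56 in HepG2 had a lower mean CPM over the line's samples than NDRG1, as the plot of change against level shows. In these bulk samples, a change in the share of cells that express a gene and a change in its RNA per cell cannot be told apart. By gain in CPM it ranked 9 in HKC-8 (690 CPM), 15 in RCC4+VHL (611 CPM) and 36 in HepG2 (476 CPM) of the 19183 genes with a count. By mean CPM, not corrected for length, NDRG1 ranked 6345 in normoxia and 144 in hypoxia in HKC-8, 4447 and 198 in RCC4+VHL, and 4900 and 260 in HepG2. At most 0.00518% of the reads assigned to genes belonged to NDRG1 in any normoxic sample, and between 0.0447% and 0.0938% in the hypoxic ones.

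**Figure D1:**
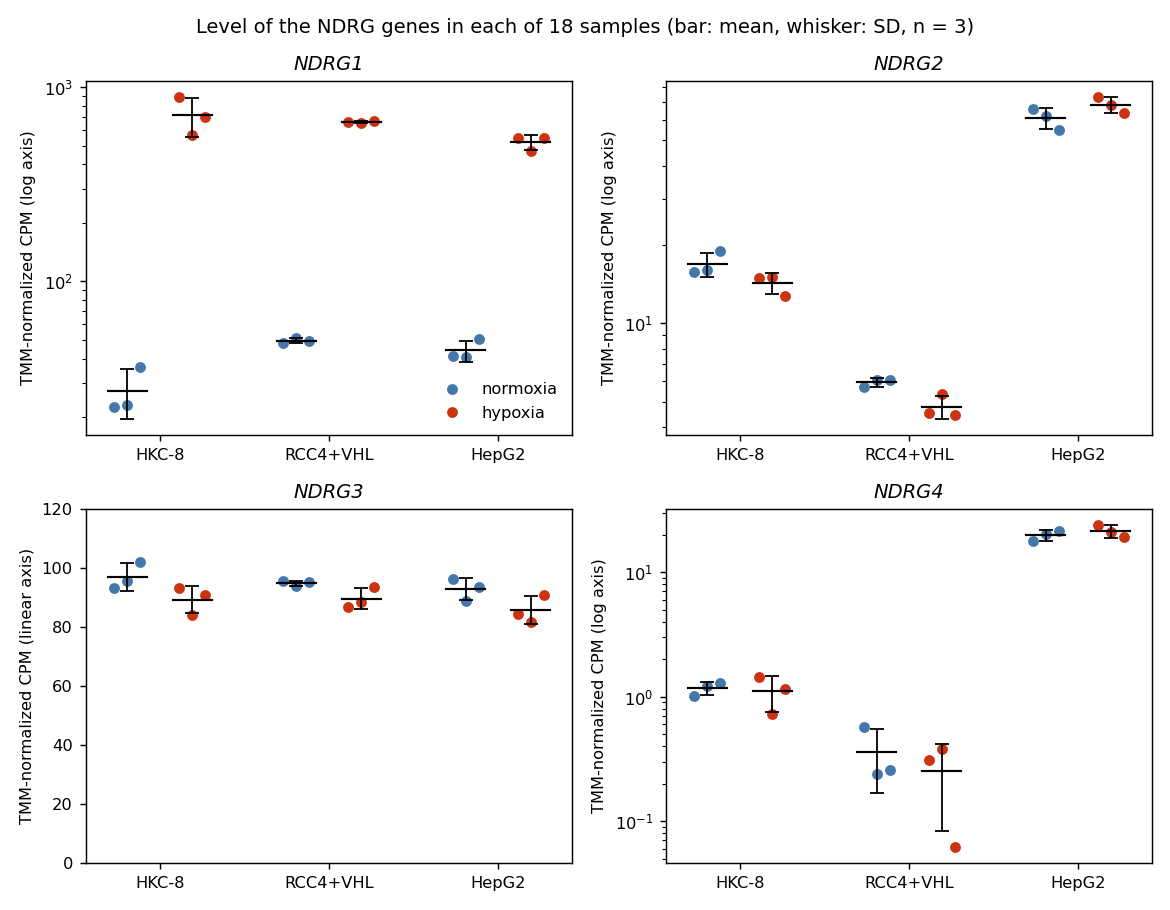
Level of each NDRG gene in the 18 samples, in TMM-normalized CPM, with one point per sample, the mean as a horizontal bar and the SD as a whisker (n = 3). NDRG1, NDRG2 and NDRG4 have log axes and NDRG3 a linear axis from 0. NDRG1 separates by oxygen, NDRG2 and NDRG4 by cell line, and the NDRG3 group means lie between 85.5 and 96.9 CPM.

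**Figure D2:**
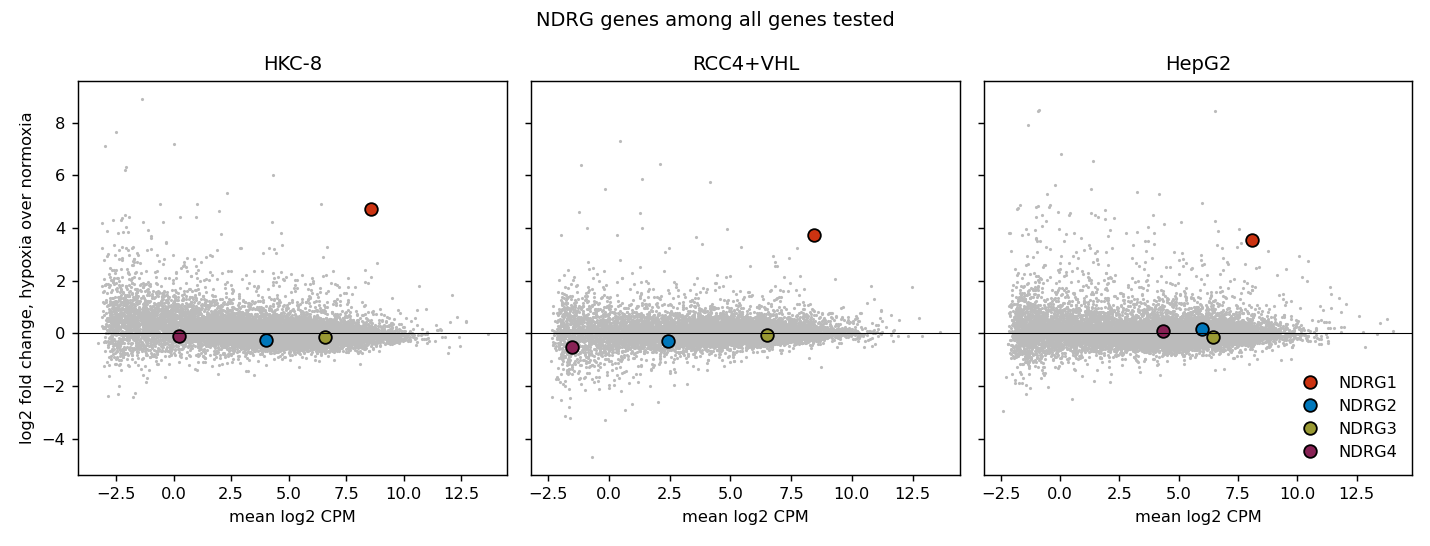
Log2 fold change in hypoxia against mean log2 CPM for all genes tested in each cell line, with the NDRG genes in colour. NDRG1 lies at 4.72, 3.74 and 3.56 in HKC-8, RCC4+VHL and HepG2, and the other members lie between -0.51 and 0.17.

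Counted over the family, 1 of 4 members was called higher and 0 of 4 lower in HKC-8, where 11.2% of all genes tested were called higher and 9.12% lower at an adjusted p under 0.05. In RCC4+VHL 1 of 4 was higher and 1 of 4, NDRG2, lower, against 25.9% and 24.2% of all genes. In HepG2 1 of 4 was higher and 0 of 4 lower, against 19.9% and 19.2%. All 4 members passed the low-count filter in every line. The median log2 change of the 4 members was -0.10, -0.19 and 0.14 in HKC-8, RCC4+VHL and HepG2, and that of all genes tested was within 0.004 of 0 in each line.

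**Figure D3:**
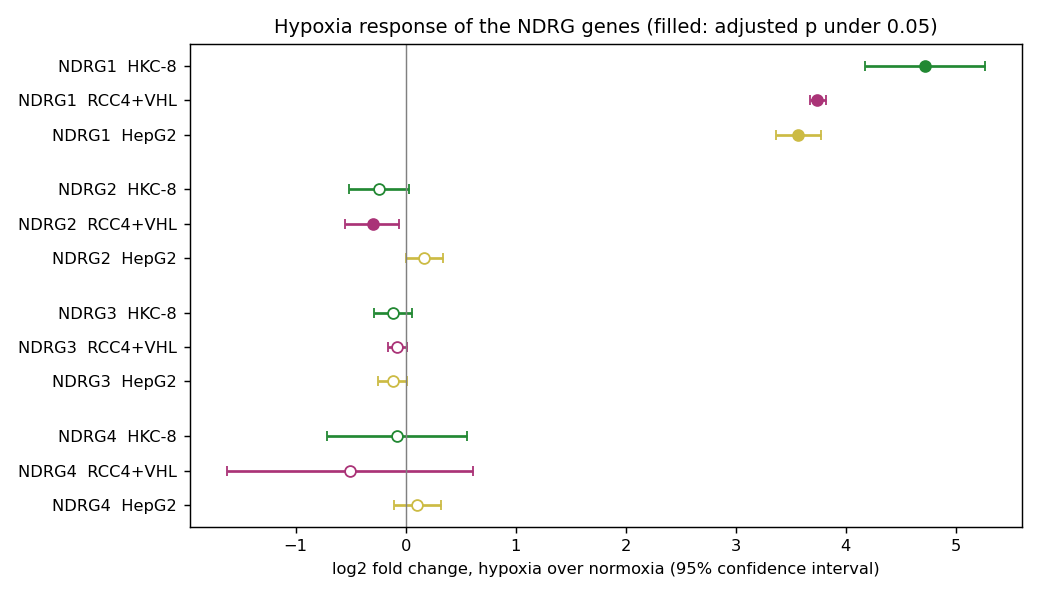
Log2 fold change in hypoxia over normoxia for each NDRG gene and cell line (point) with its 95% confidence interval (line), filled where the adjusted p was under 0.05. NDRG1 lies between 3.56 and 4.72, and every other member lies between -0.51 and 0.17.

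The response of NDRG1 was larger in HKC-8 than in the other lines. The difference of log2 responses, tested as the interaction of cell line and oxygen, was 1.15 ± 0.25 (SE) for HKC-8 minus HepG2, with a 95% interval of 0.62 to 1.68 and an edgeR adjusted p of 0.00891. For RCC4+VHL minus HKC-8 it was -0.99 ± 0.24, with an interval of -1.51 to -0.47 and an edgeR adjusted p of 0.0146, and both differences use the same HKC-8 samples. For RCC4+VHL minus HepG2 it was 0.17, with an interval of -0.04 to 0.38, and did not pass the test (edgeR adjusted p = 0.243). NDRG1 was the only member called in either comparison with HKC-8, where 9.3% of genes differed in response from HepG2 and 15.2% differed between RCC4+VHL and HKC-8. Between RCC4+VHL and HepG2, 1 of 4 members was called, NDRG2, against 22.6% of all genes.

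The wider response of HKC-8 went with a lower normoxic level of NDRG1, which is itself part of the response. In normoxia HKC-8 had 27.4 ± 7.82 CPM (SD, n = 3), RCC4+VHL 49.6 ± 1.31 and HepG2 44 ± 5.5, and all 3 HKC-8 samples were below every sample of the other lines. The normoxic log2 difference was -0.87 ± 0.15 (SE) between HKC-8 and RCC4+VHL (edgeR adjusted p = 0.000132) and -0.70 ± 0.15 between HKC-8 and HepG2 (edgeR adjusted p = 0.000755). RCC4+VHL and HepG2 differed by 0.16, with an interval of -0.17 to 0.49 (edgeR adjusted p = 0.336). In hypoxia the means were 718 ± 162, 660 ± 4.3 and 520 ± 44.1 CPM. The HKC-8 samples lay on both sides of the RCC4+VHL samples, and all were above the HepG2 samples (at least 564 against at most 547 CPM). Normoxic replicate 3 of HKC-8 was the highest sample of its group for all 4 members. Without it the response difference to HepG2 was 1.44, and without hypoxic replicate 1 it was 0.97, both past the threshold.

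NDRG3 was the member with the most even level. In HKC-8 it stood at 93.1, 95.4 and 102 CPM in normoxia and at 93, 84 and 90.7 CPM in hypoxia. In RCC4+VHL the values were 95.4, 93.8 and 95.1 CPM in normoxia against 86.6, 88.4 and 93.5 CPM in hypoxia. In HepG2 they were 96.1, 88.9 and 93.4 CPM against 84.2, 81.6 and 90.8 CPM. The hypoxic mean was 0.921, 0.944 and 0.921 times the normoxic mean in HKC-8, RCC4+VHL and HepG2. The groups did not overlap in HKC-8 and RCC4+VHL, but only just, with 93.1 against 93 CPM and 93.8 against 93.5 CPM at their nearest, and they overlapped in HepG2.

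None of these NDRG3 differences passed the test. The log2 fold change was -0.12 in HKC-8 (95% interval -0.29 to 0.06, edgeR adjusted p = 0.315), -0.08 in RCC4+VHL (-0.16 to 0.01, edgeR adjusted p = 0.119) and -0.12 in HepG2 (-0.25 to 0.01, edgeR adjusted p = 0.144). With no normalization factors the change was called lower in RCC4+VHL and in HepG2. The responses of NDRG3 in any 2 lines differed by 0.03 or less on the log2 scale, with intervals within -0.21 to 0.21. In normoxia the lines differed by at most 0.04, with intervals within -0.11 to 0.18, and no pair was called. The highest of the 6 group means was 1.13 times the lowest. Of the 9641 genes with a mean of at least 10 CPM over the groups, 15 genes (0.156%) had a smaller ratio, and the median ratio was 2.59. These are transcript levels and carry no information on the stability of the NDRG3 protein.

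NDRG2 differed mainly between cell lines. In HepG2 it stood at 65.8, 62.2 and 54.8 CPM in normoxia and at 73.2, 68.6 and 63.9 CPM in hypoxia. In HKC-8 the values were 15.7, 16 and 18.9 CPM in normoxia and 14.9, 15.1 and 12.7 CPM in hypoxia. RCC4+VHL had the least, with 5.69, 6.06 and 6.08 CPM in normoxia and 4.56, 5.37 and 4.47 CPM in hypoxia. The 3 lines did not overlap, and within HKC-8 and RCC4+VHL every hypoxic sample was below every normoxic one, while the conditions overlapped in HepG2. The normoxic log2 difference was 1.49 ± 0.10 (SE) for HKC-8 minus RCC4+VHL (edgeR adjusted p = 1.02e-08), -1.87 ± 0.10 for HKC-8 minus HepG2 (edgeR adjusted p = 4.12e-10) and -3.37 ± 0.11 for RCC4+VHL minus HepG2 (edgeR adjusted p = 2.16e-12). The libraries of each line were separate, so that differences between lines cannot be told apart from differences between library preparations.

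In hypoxia NDRG2 fell in RCC4+VHL, by 0.30 ± 0.12 on the log2 scale (edgeR adjusted p = 0.0361). This call was lost without normoxic replicate 2 (-0.29, adjusted p = 0.0922), normoxic replicate 3 (-0.29, 0.0794), hypoxic replicate 1 (-0.27, 0.104) or hypoxic replicate 3 (-0.25, 0.126). In HKC-8 the log2 change was -0.24 (95% interval -0.52 to 0.03, edgeR adjusted p = 0.186) and in HepG2 it was 0.17 (0.00 to 0.34, edgeR adjusted p = 0.103), neither past the threshold. With replicate number as a block in the fit, the HepG2 change was called (edgeR adjusted p = 0.0358). The difference of responses, RCC4+VHL minus HepG2, was -0.48 ± 0.13 with an interval of -0.75 to -0.21 (edgeR adjusted p = 0.0101), and it was called in all 19 alternative analyses. The keratin genes KRT8 and KRT18 among the epithelial markers differed in the same direction between these lines, by -0.68 ± 0.07 (edgeR adjusted p = 1.88e-06) and -1.01 ± 0.08 (edgeR adjusted p = 1.19e-08), while EPCAM did not pass the test (0.22, edgeR adjusted p = 0.0649). The part of these markers in the NDRG2 response was not tested. HKC-8 minus HepG2 was -0.41 with an interval of -0.72 to -0.11, and missed the threshold (edgeR adjusted p = 0.0853). It was called with DESeq2, with the replicate block and in 1 fit of all 18 samples. RCC4+VHL minus HKC-8 was -0.08, with an interval of -0.43 to 0.28 (edgeR adjusted p = 0.82).

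NDRG4 followed the same order of lines at lower levels. HepG2 had 17.8, 20.2 and 21.5 CPM in normoxia and 24, 21 and 19.1 CPM in hypoxia. HKC-8 had 1.01, 1.21 and 1.29 CPM against 1.44, 0.726 and 1.15 CPM. In RCC4+VHL NDRG4 was near the limit of detection, with 29, 12 and 11 reads in the normoxic samples and 15, 19 and 3 reads in the hypoxic ones. The conditions overlapped in every line. The normoxic log2 difference was -5.78 ± 0.24 (SE) for RCC4+VHL minus HepG2 (edgeR adjusted p = 3.71e-11), -4.10 ± 0.20 for HKC-8 minus HepG2 (edgeR adjusted p = 1.9e-10) and 1.68 ± 0.27 for HKC-8 minus RCC4+VHL (edgeR adjusted p = 5.79e-05).

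No hypoxia response of NDRG4 passed the test. The log2 change was -0.08 in HKC-8 (95% interval -0.72 to 0.56, edgeR adjusted p = 0.868), -0.51 in RCC4+VHL (-1.62 to 0.61, edgeR adjusted p = 0.458) and 0.10 in HepG2 (-0.11 to 0.32, edgeR adjusted p = 0.442). The interval in RCC4+VHL leaves room for a change of more than 2-fold downward, and that in HepG2 does not.

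Counting members over the normoxic comparisons, 3 of 4 (NDRG1, NDRG2 and NDRG4) were called between HKC-8 and RCC4+VHL, where 80.8% of all genes were called. The same 3 were called between HKC-8 and HepG2, against 83% of all genes, and 2 of 4 (NDRG2 and NDRG4) between RCC4+VHL and HepG2, against 83.3%. Most genes thus differed between lines, and NDRG3 did not pass the test in any of the 3 comparisons. The median of all genes was shifted by -0.111 on the log2 scale between RCC4+VHL and HepG2.

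Upstream stretches of NDRG2 and NDRG4 are shown, since promoter windows were found for these members only. They come from RefSeq's promoter windows, each 250 bases before to 50 after an annotated start, which matched GRCh37 exactly and once. The windows were searched on both strands for ACGTG and GCGTG, the core letters recognised by HIF, which cannot match at the same place on 1 strand. Of 35116 promoter windows 48.4% held at least 1 match, 21.4% ACGTG and 36.5% GCGTG. No window was found for NDRG1 and NDRG3, so that the member that rose in hypoxia was not searched. NDRG2 had a match in 3 of 5 windows, at 2 distinct places, and NDRG4 in 1 of 4 windows, at 4 places, all of them GCGTG. Capitals mark a match, here read on the strand opposite to the gene, and annotated exon bases are left out. The first stretch, of 250 bases at chr14:21539032-21539281 (GRCh37, minus strand), lies before the outermost NDRG2 start and has its match 155 bases before it. The second, of 250 bases at chr14:21494470-21494719 (GRCh37, minus strand), lies before an inner NDRG2 start and holds no match. The third, of 166 bases at chr16:58497369-58497534 (GRCh37, plus strand), holds 1 of the 4 matches of its NDRG4 window, 163 bases before the start. The letters are a description of the sequence and not evidence of binding.
NDRG2 outermost start: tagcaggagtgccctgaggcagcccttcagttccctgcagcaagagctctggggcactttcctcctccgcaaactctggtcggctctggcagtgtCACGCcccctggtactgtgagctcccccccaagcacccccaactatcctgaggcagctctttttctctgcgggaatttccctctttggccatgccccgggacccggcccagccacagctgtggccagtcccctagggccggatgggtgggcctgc
NDRG2 inner start: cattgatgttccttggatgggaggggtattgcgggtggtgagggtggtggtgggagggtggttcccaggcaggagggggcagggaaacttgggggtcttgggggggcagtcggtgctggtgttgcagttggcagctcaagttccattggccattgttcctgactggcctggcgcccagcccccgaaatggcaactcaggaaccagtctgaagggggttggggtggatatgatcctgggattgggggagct
NDRG4: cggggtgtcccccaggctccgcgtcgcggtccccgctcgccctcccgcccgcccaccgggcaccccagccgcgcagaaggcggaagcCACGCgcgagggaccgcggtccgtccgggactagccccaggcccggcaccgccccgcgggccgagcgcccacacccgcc

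Between members, levels were compared per kilobase. With merged exon length, the normoxic level of NDRG3 was 29.7 ± 1.47 CPM per kilobase (SD, n = 3) in HKC-8, 29.1 ± 0.264 in RCC4+VHL and 28.5 ± 1.11 in HepG2, the highest of the family in each. NDRG1 came next in RCC4+VHL, at 4.13 ± 0.11, and NDRG2 in HepG2, at 8.07 ± 0.741. In HKC-8 NDRG1 and NDRG2 were within their spread, at 2.28 ± 0.651 and 2.23 ± 0.234. NDRG4 was lowest in every line, from 0.0369 ± 0.0195 in RCC4+VHL to 2.06 ± 0.195 in HepG2. In hypoxia NDRG1 took the first place in all lines, at 59.8 ± 13.5, 55 ± 0.358 and 43.4 ± 3.68 CPM per kilobase in HKC-8, RCC4+VHL and HepG2.

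The make-up of NDRG expression changed accordingly. Of the summed level per kilobase of merged exons, NDRG3 made up 86.6%, 85.4% and 67.4% in normoxic HKC-8, RCC4+VHL and HepG2, and 31.1%, 33% and 32.5% in hypoxia. The share of NDRG1 went from 6.57% ± 1.39 to 66.6% ± 3.95 (SD, n = 3) in HKC-8, from 12.1% ± 0.375 to 66.2% ± 0.756 in RCC4+VHL and from 8.68% ± 1.08 to 53.5% ± 1.47 in HepG2. Merged exons of NDRG1 add up to 12002 bases over 61 annotated transcripts, against 3260 bases over 5 transcripts for NDRG3, which lowers NDRG1 on this scale. Per kilobase of longest coding sequence, the share of NDRG1 was 18.7%, 32.5% and 19.7% in normoxia and 86.8%, 87.3% and 74.1% in hypoxia. On that scale the share of NDRG3 was 68.2%, 63.1% and 42.3% in normoxia and 11.2%, 12% and 12.4% in hypoxia. NDRG3 led in normoxia and NDRG1 in hypoxia on both scales. The summed CPM of the family, not corrected for length, was 142 in normoxia and 822 in hypoxia in HKC-8, 151 and 755 in RCC4+VHL, and 218 and 696 in HepG2.

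**Figure D4:**
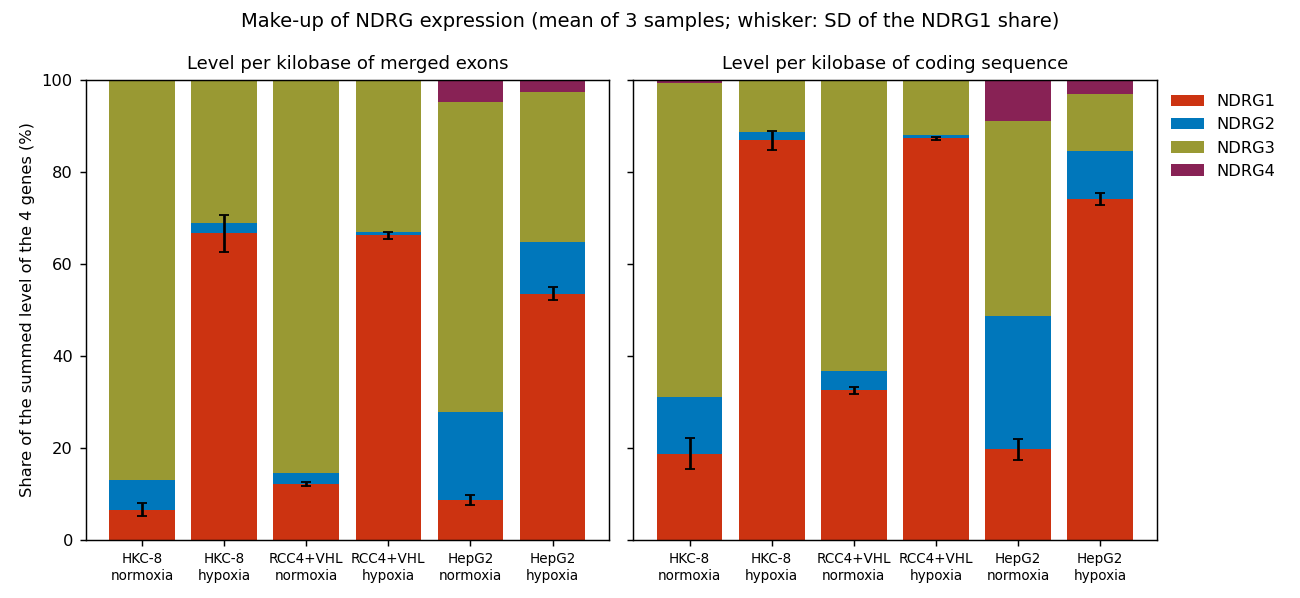
Share (%) of each gene in the summed level of the 4 NDRG genes in each group, per kilobase of merged exons on the left and of coding sequence on the right (bars: mean of 3 samples; whiskers: SD of the NDRG1 share). NDRG3 makes up the largest share in every normoxic group and NDRG1 in every hypoxic group.

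Of 31 genes linked to the NDRG proteins in the literature, 28 were tested in HKC-8, of which 7 were higher and 4 lower in hypoxia, where 11.2% of all genes were higher and 9.12% lower. In RCC4+VHL 26 were tested, with 7 higher and 10 lower, against 25.9% and 24.2% of all genes. In HepG2 30 were tested, with 7 higher and 9 lower, against 19.9% and 19.2%. The median log2 change of those tested was 0.10, -0.06 and 0.02. Among 6 genes of oxygen-dependent turnover and lactate production, LDHA, the lactate dehydrogenase subunit that makes lactate from pyruvate, rose in all lines by 1.47 ± 0.09 (SE, log2) in HKC-8, 1.77 ± 0.03 in RCC4+VHL and 1.76 ± 0.07 in HepG2. EGLN1, the prolyl hydroxylase PHD2, rose by 1.12 ± 0.08, 0.80 ± 0.03 and 1.42 ± 0.09. EGLN3, a further prolyl hydroxylase, rose by 2.38 ± 0.18 in HKC-8 and 5.30 ± 0.24 in HepG2, and did not pass the low-count filter in RCC4+VHL, where it had at most 7 reads in a sample.

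Of 7 genes of kinases or kinase complex subunits upstream of NDRG1, 0 were higher and 1 lower in HKC-8 (11.2% and 9.12% of all genes), 3 higher and 2 lower in RCC4+VHL (25.9% and 24.2%), and 1 higher and 4 lower in HepG2 (19.9% and 19.2%). The gene higher in HepG2 was RICTOR (0.24 ± 0.08, edgeR adjusted p = 0.0394), a subunit of an MTOR complex and not itself a kinase. RICTOR was also among those higher in RCC4+VHL (0.46 ± 0.05, edgeR adjusted p = 2.83e-07). SGK1, which phosphorylates NDRG1, went from 17.4 ± 4.64 to 24.1 ± 6.12 CPM (SD, n = 3) in HKC-8 without passing the test (log2 change 0.48 ± 0.22, edgeR adjusted p = 0.145). It rose by 0.28 ± 0.04 in RCC4+VHL (edgeR adjusted p = 6.73e-06) and fell by 0.38 ± 0.07 in HepG2 (edgeR adjusted p = 0.000592). The difference of SGK1 responses was 0.64 ± 0.07 for RCC4+VHL minus HepG2 (edgeR adjusted p = 2.87e-06), 0.85 ± 0.24 for HKC-8 minus HepG2 (edgeR adjusted p = 0.038) and -0.22 ± 0.23 for RCC4+VHL minus HKC-8 (edgeR adjusted p = 0.578). SGK2, its relative, fell in all lines, by 1.08 ± 0.28, 1.34 ± 0.11 and 0.89 ± 0.09 in HKC-8, RCC4+VHL and HepG2.

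Of 7 transcription factor genes, 6 of which were tested in each line, 3 were higher and 1 lower in HKC-8 (11.2% and 9.12% of all genes), 2 higher and 3 lower in RCC4+VHL (25.9% and 24.2%), and 1 higher and 0 lower in HepG2 (19.9% and 19.2%). MYCN, for which the family is named, did not pass the filter in any line. MYC, a repressor of NDRG genes, rose by 0.68 ± 0.12 in HKC-8 (edgeR adjusted p = 0.0061) and 0.25 ± 0.04 in RCC4+VHL (edgeR adjusted p = 6.32e-06), and changed by -0.06 ± 0.06 in HepG2 (edgeR adjusted p = 0.43). In HKC-8, HIF1A fell by 1.16 ± 0.08 and EPAS1, which encodes HIF-2 alpha, rose by 1.23 ± 0.12. Of 11 described partners of NDRG proteins, 0 were higher and 2 lower of 9 tested in HKC-8, 0 and 3 of 8 in RCC4+VHL, and 2 and 4 of 11 in HepG2, against the same shares of all genes. No partner that was called changed by 1 or more on the log2 scale. CDH1 changed by -1.14 ± 0.50 in HKC-8 without passing the test (edgeR adjusted p = 0.133).

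**Figure D5:**
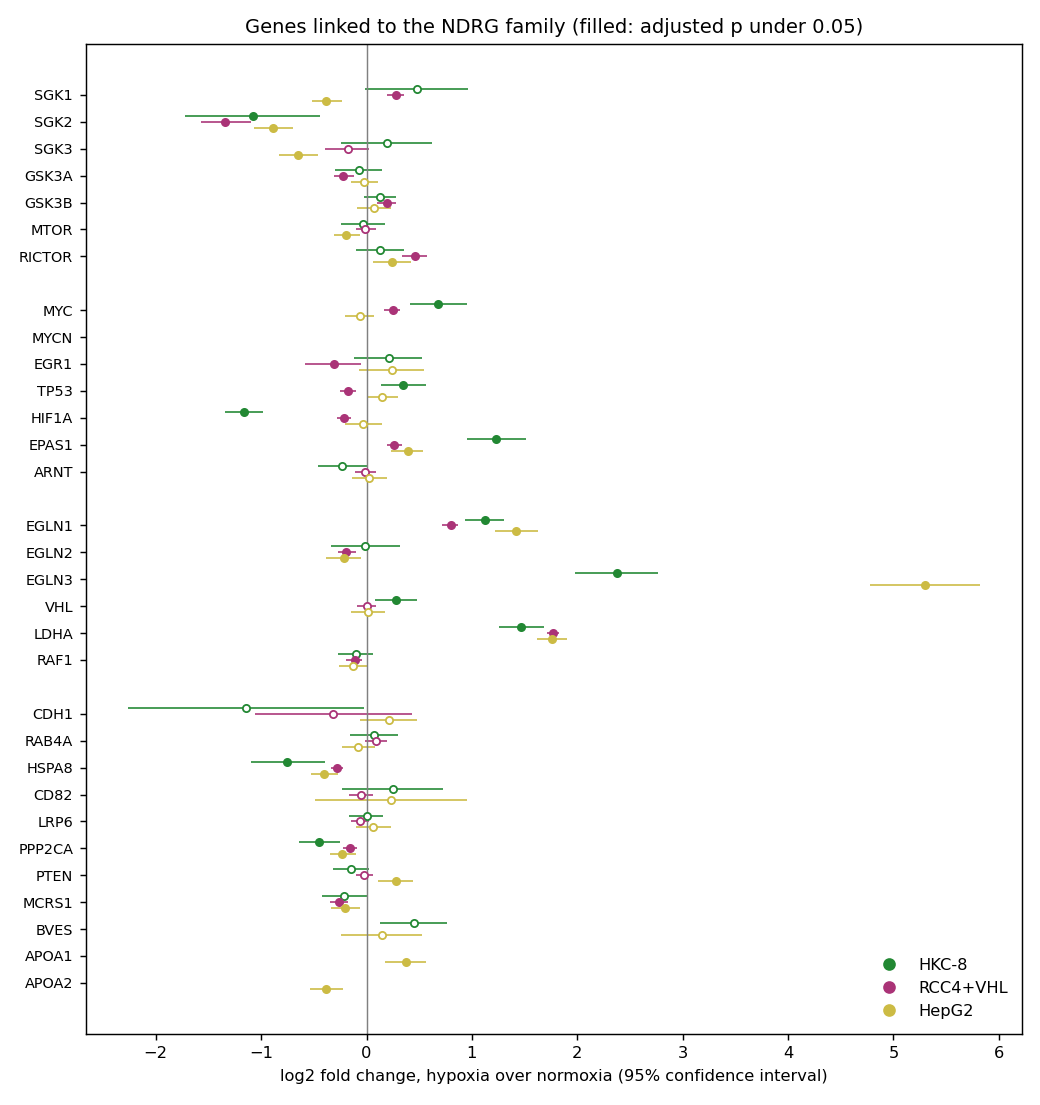
Log2 fold change in hypoxia (point) with its 95% confidence interval (line) for the 31 genes linked to the NDRG family, in blocks from the top of kinases (with RICTOR), transcription factors, turnover and lactate genes, and partners. Points are filled where the adjusted p was under 0.05, and a gene that did not pass the filter in a line has no point. LDHA and EGLN1 lie to the right of 0 in all 3 lines and SGK2 to the left.

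The genes with the pattern most like that of each member were found by Pearson's r of log2 CPM over the 18 samples among 15307 genes, as a description, since the samples share 3 lines and 2 conditions. For NDRG1 the highest were FUT11 (r = 0.971), PDK1 (0.954), P4HA2 (0.952), MOB3A (0.943) and P4HA1 (0.943). With the mean of each line subtracted they were INSIG2 (0.994), KDM3A (0.991), FUT11 (0.990), C4orf3 (0.988) and DDIT4 (0.988). PDK1 encodes a pyruvate dehydrogenase kinase, P4HA1 and P4HA2 collagen prolyl hydroxylase subunits, and KDM3A a histone demethylase. PDK1 rose by 2.20 ± 0.12 (SE, log2) in HKC-8, 2.57 ± 0.06 in RCC4+VHL and 3.25 ± 0.08 in HepG2, so that its order of lines differed from that of NDRG1. FUT11 rose by 2.02 ± 0.09, 1.67 ± 0.07 and 1.96 ± 0.09.

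For NDRG2 the highest were AGPAT1 (r = 0.994), FAM184A, LSM12, A1BG and SEC23A, and for NDRG4 PCGF2 (0.986), TAPT1, ITIH5, VSIG10L and NAALAD2, all read over 3 levels set by the cell lines. NDRG2 and NDRG4 had an r of 0.98 with each other over the 18 samples and of 0.35 with line means subtracted. For NDRG3 the values were lower, led by PPP2R2D (0.778), USP30, ZNF18, MTERFD3 and ATG4A. With line means subtracted the nearest were CCBL1 (0.851), GPX8, CHKA, PTOV1 and NDUFAF3 for NDRG2, STK38 (0.849), FBXL5, PARP2, ZNF18 and MTERFD3 for NDRG3, and TMEM132D (0.799), LOC155060, FBXO44, COL22A1 and RGL4 for NDRG4. TMEM132D and COL22A1 had 0 CPM in HKC-8 and HepG2 and under 1 CPM in RCC4+VHL, where NDRG4 had 3 to 29 reads, so that their r rests on counts near the floor. NDRG1 and NDRG3 had an r of -0.63, and of -0.67 with line means subtracted. The names depend on the measure, since at most 2 of the 5 were shared with those by Spearman's rank correlation for any member.

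Of the 8 genes annotated next to the members, not all of which were tested, 1, ST3GAL1 beside NDRG1, was called higher in HKC-8 and in RCC4+VHL. Of all genes tested, 11.2% were called higher in HKC-8 and 25.9% in RCC4+VHL. ST3GAL1, a sialyltransferase whose gene lies 152825 bases from NDRG1, rose by 1.68 ± 0.16 (SE, log2) in HKC-8 and 0.92 ± 0.04 in RCC4+VHL, and changed by 0.06 ± 0.06 in HepG2, where NDRG1 rose by 3.56. The difference of ST3GAL1 responses, HKC-8 minus HepG2, was 1.62 ± 0.17 (edgeR adjusted p = 2.75e-05). TG, on the other side of NDRG1, and SLC39A2, beside NDRG2, did not pass the low-count filter in any line. SLA2 beside NDRG3 did not pass the filter in HKC-8 and RCC4+VHL. In HepG2 SLA2 was called higher and DSN1, on the other side of NDRG3, lower, against 19.9% and 19.2% of all genes. GINS3 beside NDRG4 was called lower in RCC4+VHL and HepG2, against 24.2% and 19.2% of all genes. ZNF219 beside NDRG2 and SETD6 beside NDRG4 were called in no line.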

How the data were processed

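PolyA+ RNA libraries were made with the ScriptSeq v2 kit. The authors deposited raw read counts per gene symbol for each of 18 samples; the submitters' processing notes name Trim Galore 0.3.3, TopHat2 2.0.8b, Bowtie 1.0.0, SAMtools 0.1.19 and HTSeq 0.5.4p3, and reads were counted on UCSC genes of GRCh37. HKC-8 samples were split over 2 lanes. Counts were tested as deposited with edgeR 4.0.16 in R 4.3.3 (filterByExpr with a minimum count of 10, TMM, quasi-likelihood F test, Benjamini-Hochberg over all genes tested, called at an adjusted p under 0.05), apart in each line, in 12 samples for differences of responses and in the 9 normoxic samples for levels. SE was taken from the F statistic and intervals are at 95%. Alternatives were DESeq2 1.42.0, RLE size factors, other filters, a replicate block, 1 fit of all 18 samples, leaving out each sample and, chosen after seeing the data, no normalization factors and coding length. Differences between hypoxic levels of the lines were given as values only. Lengths came from GENCODE v44 lifted to GRCh37, which held 87.0% of the symbols, and promoter sequences from RefSeq (GRCh38.p14). Counts were simulated with 200 genes changed by 1.5 on the log2 scale. For hypoxia in HKC-8 the test recovered 90.9% of 197 changed genes among 13437 tested. It recovered 97.5% of 198 among 12746 in RCC4+VHL and 96.5% of 198 among 13526 in HepG2. Of the calls, 9.6%, 4.93% and 6.37% were false in HKC-8, RCC4+VHL and HepG2. For the HKC-8 minus HepG2 difference of responses it recovered 82.7% of 197 among 14642, with 5.78% of calls false. Smaller changes were not simulated, so these shares do not apply to the hypoxia changes of NDRG2, NDRG3 and NDRG4.

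The members and all lists were chosen with earlier results of these data known. The named genes are the members, for each the 5 genes most like it by either correlation, SGK1, MYC, LDHA and EGLN1, other linked genes called with a log2 change of at least 1, and the neighbours by call. EGLN3 in RCC4+VHL, SGK2 in HepG2 and the SGK1, ST3GAL1, KRT8, KRT18 and EPCAM response differences were added after their values were seen. RICTOR, CDH1 in HKC-8 and the values of single kidney markers were also added then. At the depths here, 3 reads correspond to 0.0306 to 0.0733 CPM. A list of neural markers is not reported here. Figures were drawn with matplotlib.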

Additional observations from a re-analysis of the deposited data

Results flagged for a closer look

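The response of NDRG1 to hypoxia differed between cell lines by the interaction test, with a difference of log2 responses of 1.15 for HKC-8 minus HepG2 (edgeR adjusted p = 0.00891) and -0.99 for RCC4+VHL minus HKC-8 (edgeR adjusted p = 0.0146). All 9 hypoxic samples were above all 9 normoxic samples, so that the lines differed in size of rise and not in direction. The response of NDRG2 differed by -0.48 for RCC4+VHL minus HepG2 (edgeR adjusted p = 0.0101), where all 3 hypoxic RCC4+VHL samples were below the normoxic ones and the HepG2 conditions overlapped. The labelled oxygen level and duration differ between RCC4+VHL and the other lines, and their part in these differences was not tested.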

How the results depend on the processing

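The NDRG1 rise was called in all 13 alternatives in each line, with log2 changes of 4.54 to 4.97 in HKC-8, 3.66 to 3.76 in RCC4+VHL and 3.47 to 3.66 in HepG2. Its differences of responses between HKC-8 and the other lines were called in all 19 alternatives. All normoxic calls of NDRG1, NDRG2 and NDRG4 held in the alternatives run, and NDRG3 was called in none of the normoxic ones. In RCC4+VHL 1 member instead of 2 was called in 1 fit of all 18 samples, leaving out one replicate gave 1 to 2 members, and 3 were called with no normalization factors (NDRG3 added). In HepG2 2 members instead of 1 were called with the replicate block (NDRG2 added) and with no normalization factors (NDRG3 added). For HKC-8 against HepG2, 2 members instead of 1 differed in response with DESeq2, with the replicate block and in 1 fit of all 18 samples, NDRG2 being added each time. The cause of these changes was not tested.

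Values that turned sign were all of uncalled differences. Leaving out one replicate, the hypoxia change of NDRG4 ranged from -0.31 to 0.15 in HKC-8 and from -0.94 to 0.02 in RCC4+VHL. For HKC-8 minus HepG2 the NDRG3 difference was 0.00 with no low-count filter, 0.02 with at least 10 counts in every sample, 0.00 with the replicate block and 0.10 with no normalization factors, and leaving out one replicate it ranged from -0.03 to 0.07, and that of NDRG4 from -0.43 to 0.06. For RCC4+VHL minus HKC-8 the NDRG3 difference was -0.05 with no normalization factors and ranged from -0.02 to 0.06 without one replicate, and that of NDRG4 from -0.86 to 0.09. The normoxic NDRG3 difference, HKC-8 minus RCC4+VHL, was -0.03 with DESeq2, with RLE size factors and with at least 10 counts in every sample, and ranged from 0.00 to 0.05 without one replicate. NDRG4 in RCC4+VHL had no value with at least 10 counts in every sample.

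Groups of a line share replicate numbers in the labels. Deviations of same-numbered samples correlated at 0.0747, 0.373 and 0.357 in HKC-8 and at -0.0193, 0.0128 and -0.00803 in RCC4+VHL. In HepG2 they correlated at 0.0902, 0.0391 and 0.0964. Replicates 2 and 3 of HKC-8, replicate 2 of RCC4+VHL and every replicate of HepG2 correlated best with their own number. No line had an r over 0.1 in every pair, and the main fits did not treat the numbers as pairs. Whether they mark pairs is not settled by the labels. The replicate block changed no other call than those above. Per-kilobase levels moved with the length used in 50 of 72 values. With total-count scaling NDRG3 had a ratio of highest to lowest group mean of 1.23, which 0.882% of genes undercut. The low counts of NDRG4 in RCC4+VHL limit what could be seen there. The coding length of a RefSeq protein was not run and was replaced by the longest annotated coding sequence.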
